A study of Mus musculus with 16 samples.

Results

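The comparison described here is that of naive bone marrow LSK cells from mice without the receptor CD93 (CD93-/-, called KO) with LSK cells from BL/6 mice that carry it (called WT). LSK cells lack the markers of mature lineages and carry Sca-1 and c-Kit, and they are the fraction of mouse bone marrow that holds the blood-forming stem cells and the earliest multipotent progenitors. The libraries were found by their titles, and 4 of the 16 libraries of the series belong here, with 2 libraries of KO LSK and 2 of WT LSK. All came from naive mice (without leukemia) at postnatal week 8 and were sorted by flow cytometry, and RNA was amplified with the SMART-Seq v4 kit. The labels name the strain C57BL/6 for the WT mice and name no strain for the KO mice, do not name the stretch of Cd93 that was removed, and do not say whether the replicates are separate mice. The p-values therefore measure only the spread between these libraries, which may be technical.

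CD93 is a transmembrane glycoprotein with a C-type lectin-like domain, EGF-like repeats and a mucin-like stalk, and it belongs to a small family with thrombomodulin, CLEC14A and endosialin. It is best known from endothelium, where it binds extracellular matrix proteins of the multimerin family and takes part in adhesion and vessel growth, and from myeloid cells, where it was first described as a receptor linked to C1q and to the uptake of dying cells. In blood formation it marks early progenitors and immature B cells, and it has been studied as a surface protein of leukemic stem cells.

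Values are RPKM, reads per kilobase of gene and 1e+06 mapped reads, in which 0.003 stands for no signal. Column totals of the 4 libraries were 1003932 to 1280702, and 14279 to 14906 features were above the lowest value. Depth, estimated from the steps between low values, was 5.5 to 7.7 in units of 1e+06 reads, and since only 53.2% to 55.9% of the low values lay within 0.1 of a whole number of reads, these depths are rough. The libraries did not fall into 2 groups by genotype. On the first principal component (62.2% of the variance), WT library 2 stood at 57.7 and KO library 2 at -53.9, with WT library 1 (-0.6) and KO library 1 (-3.2) side by side between them. Libraries 1 lay apart along the second component (22% of the variance), at 31.5 for WT and -34.7 for KO, while libraries 2 lay at 0.8 and 2.5. WT library 2 and KO library 2 also differed most in the share of signal from ribosomal protein genes, at 4.71% and 9.16%, against 7.59% in WT library 1 and 6.97% in KO library 1. For this reason the median difference of each gene list below is also given between KO library 1 and WT library 1 alone.

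The surface phenotype used for sorting was found in the RNA. Ly6a, which encodes Sca-1, was at 696 and 790.4 RPKM in the WT libraries and at 529 and 626 in the KO libraries. Kit was at 21.4 and 99.3 in WT and at 23.6 and 14.2 in KO, and the high value of WT library 2 stood apart from the other three. Flt3, the receptor of multipotent progenitors, was at 422 and 495 in WT and 477 and 370.2 in KO, and Procr, a marker of stem cells, at 85.5 and 101 in WT and 76 and 71.6 in KO. Of the lineage genes that the gate removes, Ms4a1 and Ly6g stayed at or below 2.55 RPKM in all 4 libraries. Cd3e reached 12.6 in WT library 2 and 9.35 in KO library 1, so low levels of a lineage transcript were present in both groups.

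Cd93 itself (ENSMUSG00000027435.8, GRCm38 chromosome 2, 148436640 to 148443563, minus strand) was at 5.34 and 22.9 RPKM in the WT libraries and at 1.01 and 2.1 in the KO libraries. Both KO libraries were below both WT libraries, and neither was at the lowest value of the table. The mean difference, KO minus WT, was -2.30 ± 0.69 (SE) on the log2(RPKM + 1) scale used for all differences below, with an adjusted p of 0.522 in limma's moderated test over 9594 genes. The labels do not give the deleted part, so it is unknown whether residual reads come from sequence that the allele retains. Among its family, Thbd, the thrombomodulin gene next to Cd93 on chromosome 2, was at 0.199 and 3.58 in WT and 2.25 and 2.13 in KO. Clec14a was at or below 2.54 RPKM in all 4 libraries, and Cd248 (endosialin) at or below 0.674.

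Genes of CD93 ligands and partners differed in direction, with a median of -0.15 over all libraries and 0.24 between libraries 1 alone. Of 21 such genes, Cd93 and its family included, all were found in the tables and 12 reached the level for testing, and 3 (Mbl2, Gipc2 and Cdkn2b) were at the lowest value in all 4 libraries. Igfbp7, which encodes a secreted matrix-associated ligand of CD93, was at 0.771 and 0.003 RPKM in WT and at 11.5 and 6.61 in KO. Its difference was 2.87 ± 0.52 (adjusted p = 0.188 in limma). Mmrn1, which encodes multimerin 1 and is known from platelets and endothelium, went the other way, at 3.74 and 14.3 in WT and at 0.003 in both KO libraries. It did not reach 5 RPKM in both libraries of either group and was not tested. Mmrn2, which encodes multimerin 2, was not tested either and overlapped between the groups, at 0.182 and 1.38 in WT and 4.73 and 0.003 in KO. Dag1, the gene of the matrix receptor dystroglycan, was lower in both KO libraries, at 2.76 and 1.1 against 5.33 and 12.1. The C1q chains C1qa, C1qb and C1qc were higher in both KO libraries than in both WT libraries. They are also monocyte and macrophage markers, a list in which Hmox1, Apoe, Ms4a7 and Cx3cr1 were higher in both KO libraries as well. In the same list Cd14 and Ly6c2 were lower in both KO libraries. By mean, 12 of its 22 tested members were higher in KO and 10 lower, with a median of 0.14. Igfbp7 is also in the list of stroma and endothelium markers. The part of such cells in these values was not tested. C1qb, for instance, was at 1065 and 893 in KO and 697 and 294 in WT. The genes of the cytoplasmic partners Gipc1 and Msn had overlapping groups.

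Across all genes, no difference passed the test. Genes with at least 5 RPKM in both libraries of at least 1 group were tested, 9594 in all, and 0 were higher and 0 lower in KO at an adjusted p under 0.05 (limma, 0% of genes each way). At an unadjusted p under 0.05 there were 646 genes (6.73%), and the smallest adjusted p was 0.0539 in limma, for the immunoglobulin segment Ighv1-80. The median SE of a gene's log2 difference was 0.47. With 2 libraries a group an exact permutation test has 6 arrangements and cannot give a two-sided p below 0.333. The call of 0 genes changes when a library is left out: without WT library 1, 9 genes were higher and 6 lower, without WT library 2, 5 and 4, without KO library 1, 53 and 175, and without KO library 2, 56 and 34. Sharing the variance with the 6 leukemic libraries of the same experiment gave 44 higher and 60 lower, and the replicate number as a block gave 10 and 7. The genes described below are therefore those whose KO and WT libraries lay farthest apart, as a description of these 4 libraries.

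The measure used for this is the gap, the distance on the log2(RPKM + 1) scale between the nearest libraries of the 2 groups, and it is 0 where the groups overlap. KO libraries were both above both WT libraries for 1367 genes (14.2% of those tested) and both below for 2130 (22.2%). The gap was at least 1 for 122 genes higher in KO (1.27%) and 95 genes lower in KO (0.99%). Of these, 60 of the 122 and 80 of the 95 reached 5 RPKM through the higher group only, a way through the filter that favours genes with a difference. Of all tested genes, 8239 reached it in both groups. At the edge of the filter, Btbd3 was just inside, with 10.4 and 5.0 RPKM in WT, and Ipo8 just outside, with 4.99 and 10.6 in WT.

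**Figure D1:**
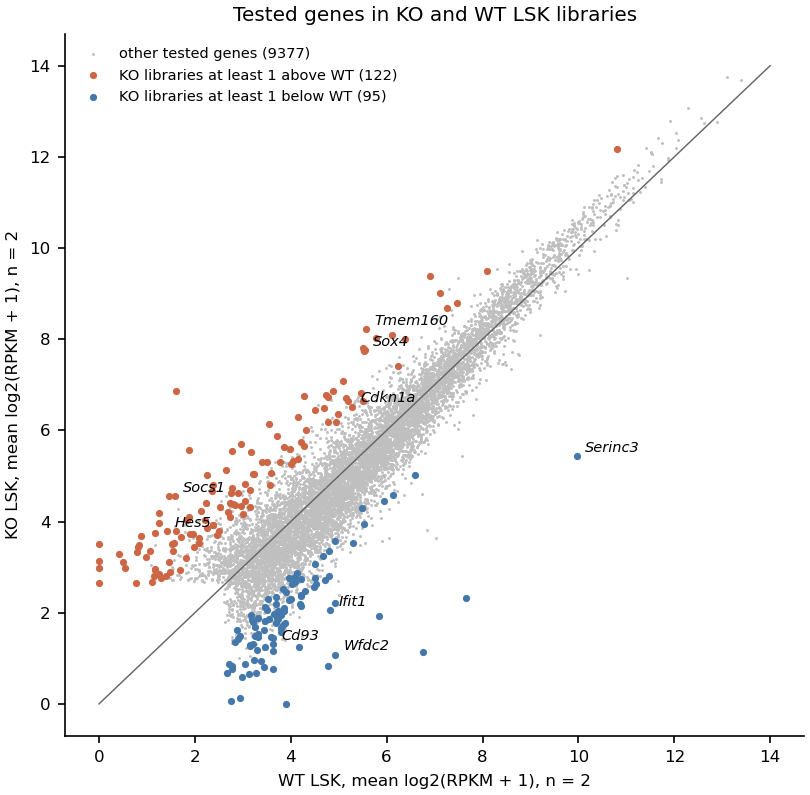
Mean log2(RPKM + 1) of the 2 KO libraries (vertical axis) against that of the 2 WT libraries (horizontal axis) for the 9594 tested genes. Each point is a gene, the line marks equal levels, orange marks the 122 genes whose KO libraries lie at least 1 above the WT libraries and blue the 95 that lie at least 1 below. Serinc3 sits far below the line at a high WT level.

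Among well expressed named genes, 15 were taken with the largest gaps above WT. Socs1, the suppressor of cytokine signalling that binds and inhibits JAK kinases, was at 2.96 and 1.27 RPKM in WT and at 27.3 and 18.8 in KO. Its difference was 2.98 ± 0.55 (adjusted p = 0.189 in limma). Rmi2, a subunit of the BLM helicase complex and a neighbour of Socs1 on chromosome 16, was at 0.765 and 3.3 in WT and at 28.9 and 17.6 in KO. Hes5, a target gene of Notch, was at 1.71 and 1.61 in WT and 11.4 and 14.6 in KO. In each of these 3 genes the WT libraries lay at low single-digit levels and both KO libraries above 10.

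Others were well expressed in WT as well. Sox4, a transcription factor of early lymphoid and stem cells, was at 52.4 and 39.6 RPKM in WT and at 263 and 177 in KO, a difference of 2.22 ± 0.34 (adjusted p = 0.101 in limma). Tmem160, which encodes a small mitochondrial membrane protein, was at 53.1 and 40.5 in WT and at 362 and 245 in KO (2.66 ± 0.33, adjusted p = 0.0742 in limma). Scand1, which encodes a SCAN-domain protein, was at 51.4 and 56.3 in WT and 280.1 and 237 in KO (2.24 ± 0.29, adjusted p = 0.0742 in limma). In these 3 genes the libraries of a group lay close together and the gap was between 1.74 and 2.18. Taf10, a subunit of TFIID and SAGA, was at 15.5 and 7.4 in WT and 82.9 and 57.6 in KO. Slc25a33, a mitochondrial pyrimidine nucleotide carrier, was at 1.61 and 2.52 in WT and 14.4 and 11.5 in KO. Others of the 15 were Tmem238, Cdv3, Zfp771, Prr24 and the microRNA loci Mir5132 and Mir147. Taf10 overlaps Ilk on the opposite strand, and Ilk was at 152 and 151 in WT and 134 and 95.6 in KO.

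The 4 microRNA features among the 30 overlap host genes on the same strand, and reads of a host transcript cannot be told from those of the locus. Mir147 was at 128 and 110.2 RPKM in WT and at 607 and 745 in KO, and its host AA467197 was at 47.1 and 43.4 in WT and 188 and 244 in KO. The pair thus had the same order of libraries. Mir5132 was at the lowest value in both WT libraries and at 12.4 and 8.79 in KO, and its host Irak1, a kinase of Toll-like receptor signalling, was at 55.1 and 69.1 in WT and 103 and 91.4 in KO. Among the lower features, Mir677 was at 7.82 and 24.4 in WT and 0.003 in both KO libraries, while its host Atp5b overlapped between the groups. Mir5114, inside Scd2, was at 22.6 and 31 in WT and at 2.13 and 0.003 in KO.

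Below WT, Serinc3 had the largest difference of any protein-coding gene that the rule names. Serinc3 encodes a multipass membrane protein of the serine incorporator family. It was at 627 and 1591 RPKM in WT and at 74.7 and 23.5 in KO, a difference of -4.54 ± 0.58 (adjusted p = 0.0742 in limma), and every library of WT was far above every library of KO. An antisense transcript at its start, 0610039K10Rik, was at 29.1 and 108 in WT and 4.24 and 1.75 in KO. Whether counting used strand is not given in the sources used here, so the reads of the pair may not be separable. Jmjd7, which encodes a JmjC-domain hydroxylase and protease, was at 14.3 and 20.4 in WT and 1.37 and 1.36 in KO (-2.94 ± 0.50, adjusted p = 0.16 in limma). Wfdc2, which encodes a secreted whey acidic protein-type inhibitor, was at 38.7 and 22.4 in WT and 3.47 and 0.003 in KO. Ttpal, a relative of the tocopherol transfer protein, was at 12.5 and 10.2 in WT and 1.89 and 0.003 in KO.

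Neurl2, an adaptor of a ubiquitin ligase, was at 17.9 and 17.3 RPKM in WT and 4.55 and 3.87 in KO. Manba, the lysosomal beta-mannosidase, was at 12.5 and 12 in WT and 3.05 and 2.38 in KO. Qpctl, the Golgi glutaminyl cyclase, was at 14.5 in both WT libraries and at 4.06 and 3.68 in KO. Pde1b, a calmodulin-dependent phosphodiesterase, was at 9.95 and 11.3 in WT and 2.75 and 2.52 in KO. In these 4 genes the replicates lay close together on both sides. The others of the 15 were Ifit1, described with the interferon genes, Depdc1b, Zfp935, Fchsd1, Wdr89 and the 2 microRNA loci. Over Cd93 and the 30 genes named by gap, the adjusted p ranged from 0.0742 to 0.522 in limma.

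**Figure D2:**
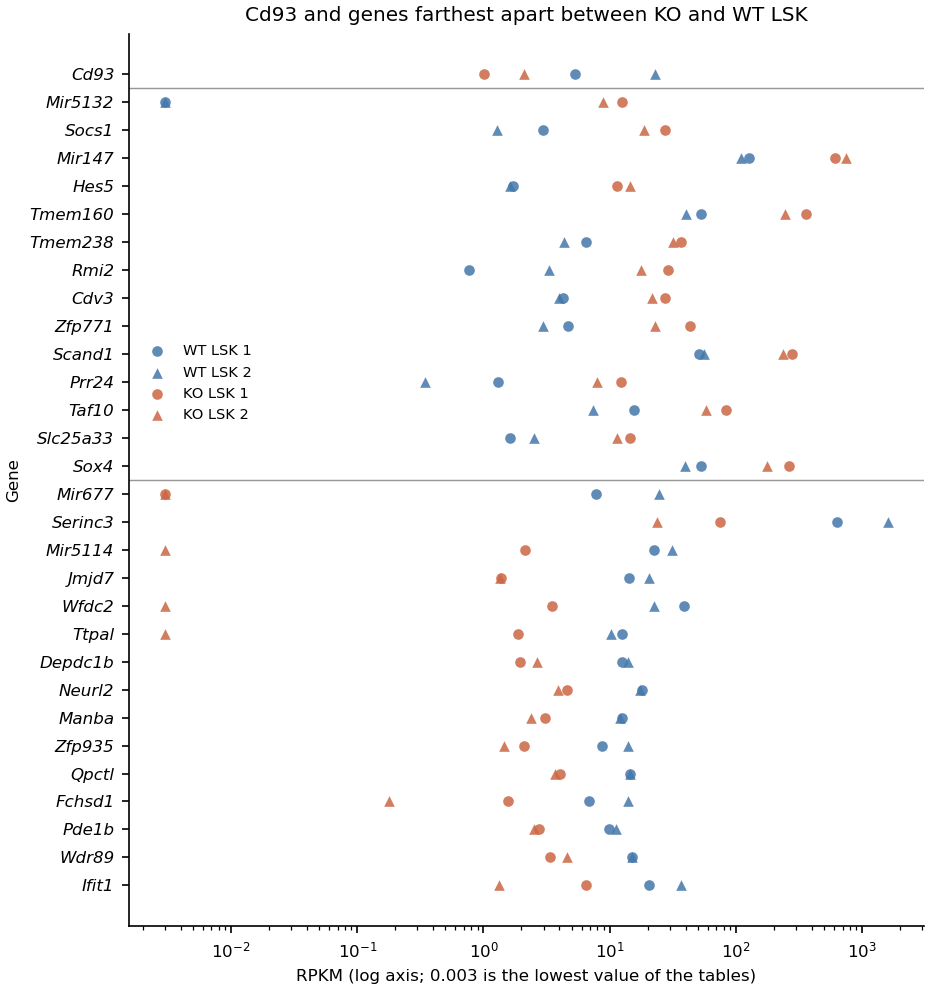
RPKM of Cd93 (top), 14 of the 15 genes with the largest gaps above WT (middle) and the 15 with the largest gaps below WT (bottom) in each library, on a log axis. Blue marks WT and orange KO, circles library 1 and triangles library 2, and 0.003 is the lowest value of the table. In every line the colours do not overlap, which is what the choice of genes required.

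Several of the lower genes lie on chromosome 2, the chromosome of Cd93. Of 668 tested genes placed on chromosome 2, 16 (2.4%) had KO libraries at least 1 below WT and 8 (1.2%) at least 1 above, against 0.909% and 1.26% of the tested genes on other chromosomes. Within 20 Mb of the Cd93 start, a distance chosen after the values were seen, 10 of 198 genes were at least 1 below (5.05%) and 3 at least 1 above (1.52%), Cd93 not counted. The 10 include Serinc3 and 0610039K10Rik, which overlap and whose reads may not be separable. Farther away on the same chromosome the shares were 1.07% each. All of these genes within 20 Mb lay at higher coordinates than Cd93. Ttpal and Serinc3 start 15.2 Mb from Cd93, Wfdc2 16.1 Mb and Neurl2 16.4 Mb, so these 4 genes are close neighbours. Nearer to Cd93, within 5 Mb, 2 of 43 genes were at least 1 below and 1 at least 1 above. These were Zfp120, a zinc finger gene, at 15.1 and 10.1 in WT and 4.36 and 2.14 in KO, Pofut1, the O-fucosyltransferase of Notch receptors, at 6.99 and 11.4 in WT and 2.31 and 1.56 in KO, and Mcts2, at 2.52 and 1.98 in WT and 6.19 and 7.1 in KO. With gaps of any size, 13 of the 43 were lower in both KO libraries and 5 higher, against 22.2% and 14.2% of all tested genes. Cst3 and Nxt1, close to Cd93, had overlapping groups. Cst3 was at 2251 and 1686 in WT and 1947 and 2318 in KO, and Nxt1 at 326 and 199 in WT and 267 and 260 in KO. Among the other chromosomes the share at least 1 below WT ranged from 0.397% to 2.65%, the highest on chromosome 12, which holds the immunoglobulin heavy chain segments. The strain background of the KO mice is not labelled, and its part in the chromosome 2 values was not tested.

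**Figure D3:**
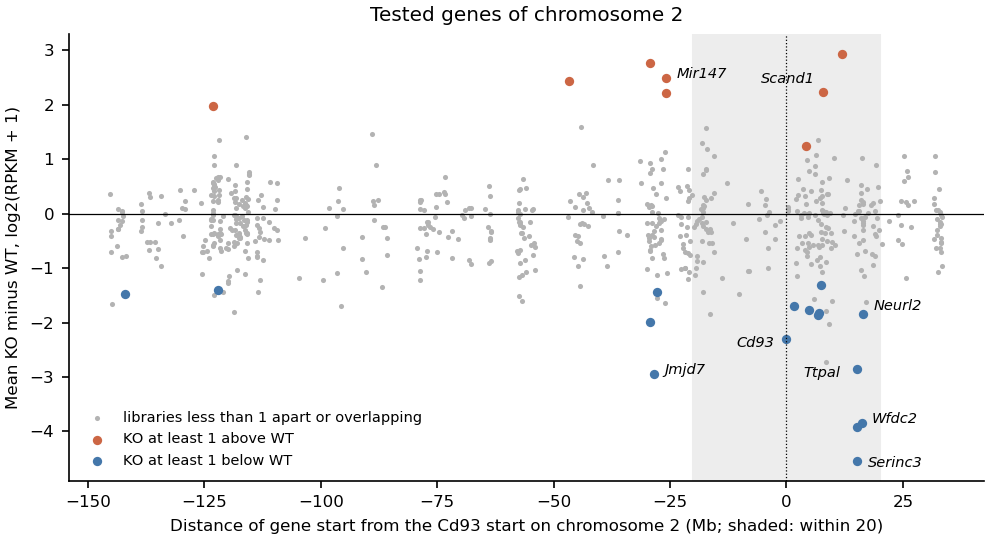
Mean log2 difference, KO minus WT, of the tested genes of chromosome 2 (vertical axis) against the distance of the gene start from that of Cd93 (horizontal axis, Mb). Blue points had KO libraries at least 1 below WT and orange at least 1 above, and the shaded band spans 20 Mb on each side. The lowest points, with Serinc3 at -4.54, lie together at about the same distance to the right of Cd93.

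Genes induced by type I interferon had lower values in the KO libraries as a group. Type I interferons act through JAK kinases on STAT proteins and IRF9, and the complex of these binds interferon-stimulated response elements at the promoters of antiviral genes, and in stem cells a basal level of these genes is known at steady state. Of 40 tested members of a list of 45 such genes, KO libraries were both below both WT libraries in 26 (65%, against 22.2% of all tested genes) and above in 0 (14.2% of all), and the median difference was -0.57 against -0.11 over all genes. The median level of the list, on the log2(RPKM + 1) scale, was 5.20 and 5.68 in WT and 4.92 and 4.43 in KO, with groups that did not overlap. Between libraries 1 alone 32 of the 40 were lower in KO and the median was -0.28, where that of every tested gene was 0.01, and leaving out 1 library at a time gave medians of -0.78 to -0.35. None of the 40 passed the test, and the summed RPKM of the list, carried by a few abundant genes, overlapped at 8006 and 6909 in WT and 6655 and 8847 in KO.

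The interferon genes with the largest gaps were antiviral effectors and a signalling component. Ifit1, which encodes a sensor of foreign RNA caps, was at 20.3 and 37 RPKM in WT and at 6.54 and 1.33 in KO (-2.76 ± 0.68, adjusted p = 0.367 in limma). Iigp1, an immunity-related GTPase, was at 18.2 and 46.6 in WT and 6.07 and 2.08 in KO. Stat2 was at 14.3 and 32.3 in WT and 5.35 and 6.2 in KO. In these 3 genes the gap exceeded 1. Oas2, an oligoadenylate synthetase, was at 9.5 and 19.7 in WT and 5.13 and 0.579 in KO, Eif2ak2, the RNA-activated kinase PKR, at 25.6 and 30.8 in WT and 11.7 and 14.7 in KO, and Ifit3 at 14.2 and 28.7 in WT and 7.4 and 8.22 in KO.

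The promoters of the list were searched for the core of the interferon-stimulated response element. In the 250 bases before the gene start (RefSeq, GRCm38.p6), a pair of GAAA with any 2 bases between them, on either strand (TTTC on the other), was found in 11 of the 28 tested list members with a sequence (39.3%), against 936 of 27025 genes in all (3.46%). Of the 11, 8 had KO libraries both below both WT libraries, where 26 of all 40 tested members did, so this count says nothing particular to the members with the element. Stretches around the match are shown for Ifit1, Stat2, Ifit3 and Igtp, an immunity-related GTPase, all on the plus strand, with the match in capitals. A match is a description of these letters, not a measured binding site.
Ifit1, chr19:34640765-34640833: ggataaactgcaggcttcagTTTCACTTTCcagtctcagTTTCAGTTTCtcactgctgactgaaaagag
Stat2, chr10:128270256-128270305: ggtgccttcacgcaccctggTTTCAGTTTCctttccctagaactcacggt
Ifit3, chr19:34583353-34583436: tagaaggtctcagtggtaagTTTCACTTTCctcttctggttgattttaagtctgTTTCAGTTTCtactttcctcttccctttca
Igtp, chr11:58199502-58199551: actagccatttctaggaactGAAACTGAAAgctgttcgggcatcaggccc
Ifit1 and Ifit3 each hold the element at 2 positions within the stretch shown. The match nearest to the gene start began 85 bases before it in Ifit1, 122 in Ifit3, 222 in Stat2 and 34 in Igtp.

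Feedback genes of the JAK-STAT pathway, which transmits the signals of cytokines and interferons, did not share 1 direction. Of 16 tested members, 4 were higher in both KO libraries (25%) and 3 lower (18.8%), against 14.2% and 22.2% of all tested genes. The median was -0.28 over all libraries and 0.23 between libraries 1. Beside Socs1, the STAT5 target kinases Pim3 and Pim1 were higher. Pim3 was at 7.54 and 12.1 RPKM in WT and 49.2 and 30.1 in KO, and Pim1 at 13.3 and 11.6 in WT and 26.1 and 31.5 in KO. Socs2 and Cish, other feedback inhibitors, were lower: Socs2 was at 34.6 and 36.2 in WT and 15.7 and 26.9 in KO, and Cish at 28.2 and 38.7 in WT and 21.5 and 20 in KO. Jak2 was at 6.18 and 6.71 in WT and 2.03 and 3.26 in KO.

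Immediate-early genes, which are transcribed within minutes of a stimulus, were higher in both KO libraries in 9 of 22 tested members (40.9%, against 14.2% of all genes) and lower in 2. The median difference was 0.38 and 0.09 between libraries 1 alone. Jund, a subunit of AP-1, was at 32.7 and 20 RPKM in WT and 128 and 92.8 in KO (2.05 ± 0.39, adjusted p = 0.195 in limma). Ier5 was at 5.2 and 6.41 in WT and 33.4 and 16.5 in KO, and Dusp5, a phosphatase of ERK, at 3.43 and 1.4 in WT and 10.2 and 13.4 in KO. Jun itself and Egr1 had smaller gaps, with Egr1 at 57.3 and 72.5 in WT and 105 and 92.5 in KO. Zfp36, which destabilises AU-rich transcripts, was lower, at 338 and 457 in WT and 216 and 202 in KO.

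Among CDK inhibitors and targets of p53, 8 of 19 tested genes were higher in both KO libraries (42.1%) and 4 lower (21.1%), against 14.2% and 22.2% of all tested genes, with a median of 0.17, and 0.09 between libraries 1. Cdkn1a, which encodes the cell cycle inhibitor p21, was at 37.3 and 38.5 RPKM in WT and 92.6 and 89.2 in KO (1.24 ± 0.33, adjusted p = 0.456 in limma), with close replicates in both groups. Cdkn1c, which encodes p57 and is known from quiescent stem cells, was at 2.63 and 2.84 in WT and 22.1 and 6.7 in KO. Other p53 targets lay lower in KO, among them Ccng1, at 17.5 and 42.7 in WT and 8.96 and 15.8 in KO, and Mdm2, at 21.7 and 42.8 in WT and 20.3 and 7.28 in KO. Of 13 tested genes of the BCL2 family, 6 were higher in both KO libraries (46.2%) and 2 lower (15.4%), with a median of 0.40, and 0.17 between libraries 1. Bid, which links death receptors to mitochondria, was among the lower ones, at 65.6 and 105 in WT and 59.9 and 31.1 in KO. Bcl2a1d was at 5.97 and 6.24 in WT and 19.5 and 19.6 in KO and Bcl2a1a at 5.31 and 5.98 in WT and 15 and 17.4 in KO, but these are near-identical copies of one gene and their reads may have been split between them.

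Stem cell transcription factors were balanced between directions. Of 28 tested, 6 were higher in both KO libraries (21.4%) and 8 lower (28.6%), against 14.2% and 22.2% of all tested genes. The median difference was 0.00, and -0.08 between libraries 1. The lower ones with the largest gaps were Gfi1b, Cbfa2t3, Meis1, Gata2 and Hoxa9. Gfi1b was at 60.8 and 70.1 RPKM in WT and 31 and 23.5 in KO (-1.25 ± 0.38, adjusted p = 0.546 in limma), and its partner in repression Cbfa2t3 at 79 and 95.7 in WT and 47.4 and 31.5 in KO. Meis1, a homeobox cofactor of stem cells, was at 75.4 and 163 in WT and 53.8 and 37 in KO, Gata2 at 69.7 and 115 in WT and 53.7 and 34.9 in KO, and Hoxa9 at 165 and 132 in WT and 105 and 99.5 in KO. Sox4 and Nkx2-3 led the higher ones, with Nkx2-3 at 5.21 and 7.56 in WT and 15.3 and 13.7 in KO. Of 31 tested stem cell surface and niche genes, 11 were lower in both KO libraries (35.5%) and 3 higher (9.68%), with a median of -0.32, and between libraries 1 alone 16 were lower and 15 higher, with a median of -0.06. Jam3, an adhesion molecule, was at 14.9 and 9.41 in WT and 4.18 and 3.96 in KO, and Ptprc, which encodes CD45, at 62.4 and 86.2 in WT and 42 and 43.1 in KO.

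Erythroid genes had lower values in the KO libraries, also between libraries 1 alone. Of 17 tested erythroid markers, 8 were lower in both KO libraries (47.1%) and 0 higher, against 22.2% and 14.2% of all tested genes. The median difference was -0.87 over all 4 libraries and -0.84 between libraries 1 alone, where 15 of the 17 were lower. In bulk RNA, fewer cells of a type and less RNA per cell cannot be told apart. Ermap, an erythrocyte membrane protein, was at 8.61 and 8.58 RPKM in WT and 2.34 and 2.07 in KO (-1.58 ± 0.48, adjusted p = 0.554 in limma). Klf1, the erythroid Krüppel-like factor, was at 43.4 and 26.4 in WT and 9.2 and 18.6 in KO, and Gata1, the factor shared by the erythroid and megakaryocytic lineages, at 29.4 and 21.8 in WT and 11.5 and 13.8 in KO. The summed level of the list was 3401 and 2563 in WT and 2525 and 2332 in KO, and most of it came from Car2, at 1924 and 1733 in WT and 1582 and 1326 in KO. The globin genes overlapped between the groups, with Hba-a1 at 380.3 and 160.2 in WT and 188 and 217 in KO. Beta-s was at 221 and 137 in WT and 261 and 194 in KO. By mean, 14 of the tested markers were lower in KO and 3 higher. Megakaryocyte and platelet genes had 8 of 16 tested members lower in both KO libraries (50%) and 0 higher, a median of -0.49, and -0.23 between libraries 1. Ppbp, a platelet chemokine, was at 5.54 and 13.4 in WT and 2.66 and 2.7 in KO, and Itga2b, which encodes CD41, at 29.5 and 31.2 in WT and 16.5 and 23 in KO.

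**Figure D4:**
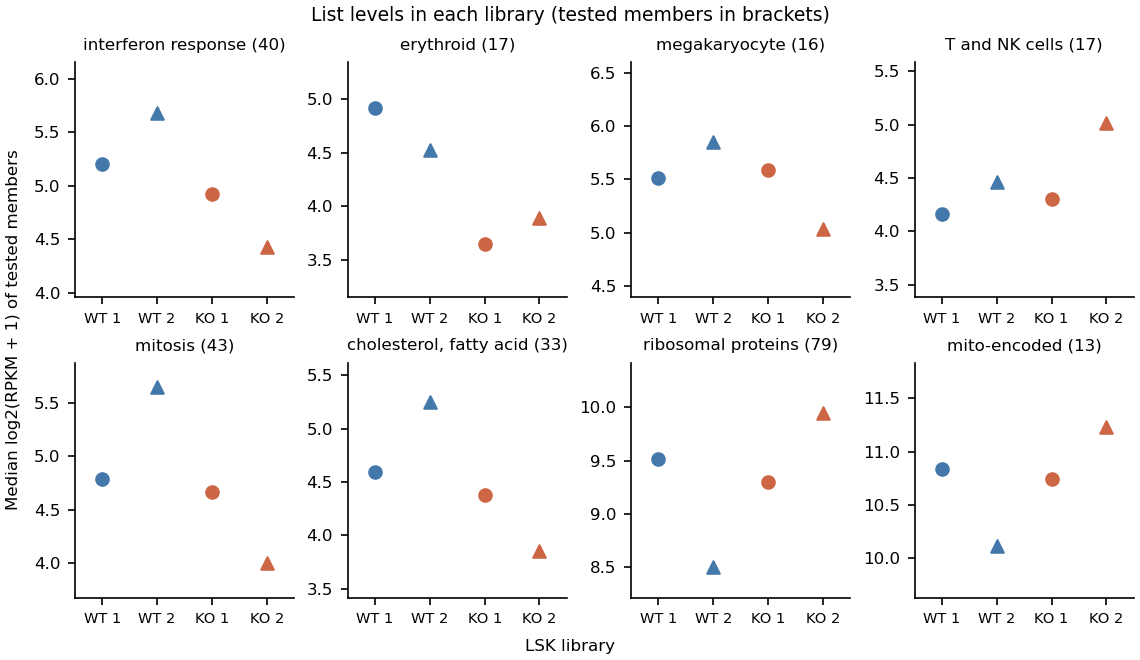
Median log2(RPKM + 1) over the tested members of 8 gene lists in each of the 4 libraries. Blue marks WT and orange KO, circles library 1 and triangles library 2, each panel spans the same range, and the number in brackets is that of tested members. Interferon, erythroid, mitosis and lipid synthesis levels were lower in both KO libraries than in both WT libraries, with libraries 1 close together in the last pair of lists, while for ribosomal proteins and mitochondrially encoded genes library 1 of both genotypes lay between the libraries 2.

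Mitosis, lipid synthesis and ribosomal protein genes differed mainly between the libraries 2. Of 43 tested mitosis genes, 20 were lower in both KO libraries (46.5%) and 0 higher, against 22.2% and 14.2% of all tested genes. Their median was -0.56, but between libraries 1 alone the median was -0.02, with 22 lower and 21 higher. Kif23, a kinesin of cytokinesis, was at 39.1 and 51.9 RPKM in WT and 23.4 and 18.2 in KO, and Plk1, a mitotic kinase, at 28.8 and 49.3 in WT and 21.5 and 14 in KO. DNA replication genes, the other arm of the cell cycle, had 8 of 46 higher and 5 lower, with a median of 0.03, and between libraries 1 alone 34 of 46 were higher, with a median of 0.23. Cholesterol and fatty acid synthesis had 16 of 33 lower (48.5%) and 1 higher, with a median of -0.66, and -0.06 between libraries 1. Acss2, which makes acetyl-CoA from acetate and lies 7.1 Mb from Cd93, was at 12.3 and 14.7 in WT and 4.08 and 2.28 in KO, Insig1, the sterol-sensing retention protein of the SREBP pathway, at 11.3 and 15.2 in WT and 6.33 and 5.68 in KO, and Fasn at 24 and 34 in WT and 16.1 and 17.3 in KO. One exact form of the sterol regulatory element, searched on both strands of the same windows, was in 0 of 24 promoters of this list and in 22 of 27025 in all (0.0814%). Genes of the unfolded protein and integrated stress responses had 14 of 32 lower (43.8%) and 1 higher, with a median of -0.27, and -0.13 between libraries 1, and the chaperone Hspa5 was at 298 and 550.2 in WT and 252 and 244 in KO.

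Cytosolic ribosomal protein genes had a higher KO mean in 79 of 79, a median of 0.61, but only 6 were higher in both KO libraries (7.59%, against 14.2% of all tested genes). Their median level was 9.52 and 8.50 in WT and 9.30 and 9.95 in KO, and between libraries 1 alone the direction turned, with 73 of 79 lower in KO and a median of -0.18. Rpsa, a component of the small subunit, was at 556 and 354 RPKM in WT and 607 and 869 in KO. Mitochondrially encoded genes showed the same turn, with a median of 0.37 over all libraries and -0.26 between libraries 1, as did the nuclear genes of oxidative phosphorylation, with 0.40 and -0.18.

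**Figure D5:**
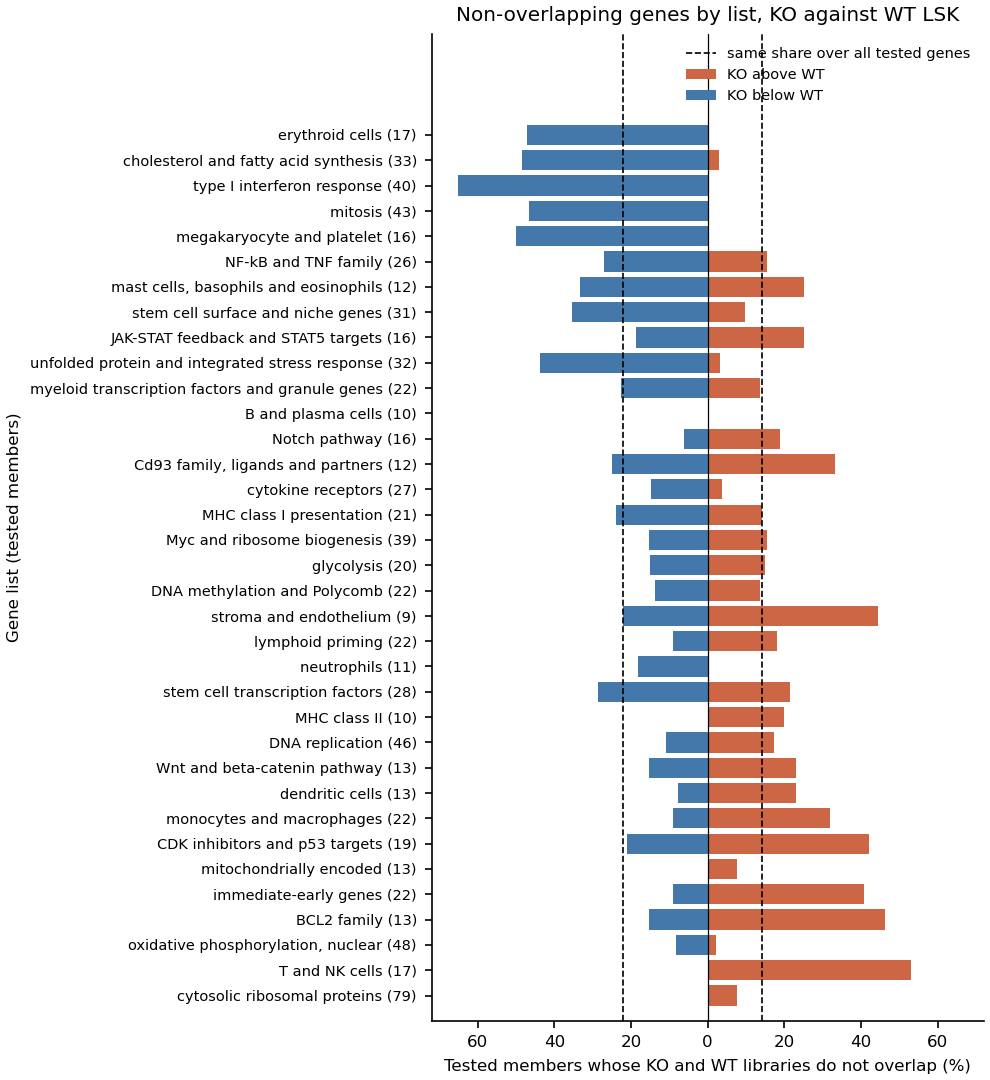
Share of tested members of each of the 35 gene lists whose 2 KO libraries were both above (orange, right) or both below (blue, left) both WT libraries, with the number of tested members in brackets. Dashed lines mark the same shares over all tested genes, 14.2% above and 22.2% below. The interferon list has the longest bar to the left, at 65%, and T and NK cell markers the longest to the right, at 52.9%.

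Markers of mature cells were present, and some did not overlap between the groups. T and NK cell markers, of which 17 of 32 reached the level for testing, were higher in both KO libraries in 9 (52.9%) and lower in 0. Over all tested genes these shares were 14.2% and 22.2%. The median of the list was 0.52, and between libraries 1 alone all 17 were higher with a median of 0.78. The median level of the list nonetheless overlapped, at 4.16 and 4.46 in WT and 4.30 and 5.02 in KO. Cd3g, a chain of the T cell receptor complex, was at 27.9 and 25.3 RPKM in WT and 57.3 and 49.4 in KO, Thy1 at 4.93 and 4.14 in WT and 12.8 and 10.6 in KO, and Ccl5 at 77.3 and 94.4 in WT and 155 and 174 in KO. The summed level of the list was 1131 and 1180.4 in WT and 1650.5 and 1427 in KO, and none of the 32 was at the lowest value in all 4 libraries. Of the 12 tested mast cell, basophil and eosinophil genes 3 were higher and 4 lower, with a median of -0.35, and -0.15 between libraries 1. The basophil proteases Mcpt8 and Prss34 were higher, Mcpt8 at 6.94 and 20.9 in WT and 56.8 and 58.8 in KO and Prss34 at 0.003 and 12.6 in WT and 60.3 and 36.1 in KO. Cpa3, a mast cell protease, and Hdc, which makes histamine, were lower, Cpa3 at 29.9 and 21 in WT and 20.3 and 14.3 in KO and Hdc at 5.8 and 11.3 in WT and 4.97 and 4.36 in KO. The list had summed levels of 1431 and 1141 in WT and 1190.1 and 1361 in KO. Monocyte and macrophage markers were higher in both KO libraries in 7 of 22 (31.8%) and lower in 2. Their median was 0.14, and 0.60 between libraries 1 alone, where 19 of 22 were higher, but without KO library 1 it was -0.30. Hmox1, heme oxygenase, was at 98.5 and 90.3 in WT and 237 and 139.6 in KO, but Cd14 was lower, at 10.5 and 11.2 in WT and 4.25 and 5.7 in KO. Neutrophil markers had 0 of 11 higher and 2 lower, a median of -0.01, and -0.11 between libraries 1, with Chi3l3 at 82.5 and 67.3 in WT and 33.3 and 12.6 in KO. Of B and plasma cell markers, 10 were tested and none separated the groups, with a median of -0.24, and -0.87 between libraries 1. The summed level of that list was high and uneven, at 8152 and 4340.2 in WT and 2642 and 8601 in KO. Igkc was at 4571 and 2488 in WT and 1239.7 and 6205 in KO. Stroma and endothelium markers had 4 of 9 higher and 2 lower, a median of -0.04, and 0.17 between libraries 1, with Sparc, a matrix protein, at 16.1 and 17.1 in WT and 64.8 and 29.2 in KO and Pecam1, which encodes CD31, at 26.7 and 42.1 in WT and 19.7 and 13.6 in KO. The part of these cells in the differences above was not tested.

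Immunoglobulin segments gave the extreme values of the comparison. Of 32 tested V and J segments, 9 were higher in both KO libraries and 3 lower, where 14.2% of all tested genes were higher and 22.2% lower. The median difference of the segments was -0.07. Ighv1-80 was at 1.17 and 3.21 RPKM in WT and at 104 and 127 in KO, and Ighv1-18 at 77.9 and 146 in WT and at 0.003 and 3.77 in KO. Ighj4 was at 137 and 290 in WT and 24.1 and 0.003 in KO. Segments share sequence, so reads may have been assigned to one or another of them. Of 14 tested T cell receptor segments, 5 were higher and 2 lower, none with a gap of 1.

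The genes at least 1 apart also had other transcript structures than the tested genes as a whole. Those higher in KO had a median GC content of 53.7%, a median transcript length of 1796 bases and a median of 4 exons, and 47 of 116 (40.5%) had 1 or 2 exons. Those lower in KO had 48.3% GC, 3085 bases and 8 exons, and 17.2% had 1 or 2 exons. Over all tested genes these values were 50.4%, 2618 bases, 8 exons and 11.2%. When the tested genes were ordered by GC content and placed in 5 bins of 1858 genes, the median difference went from -0.26 in the bin of lowest GC to 0.06 in that of highest, and between libraries 1 alone from -0.13 to 0.11. The part of GC content and length in the differences of single genes was not tested.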

How the data were processed

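Per the labels' protocols, RNA of FACS-purified LSK cells was extracted with the RNeasy Micro kit and amplified with SMART-Seq v4. The authors deposited 1 value per feature and library, taken here to be RPKM because the values are not whole numbers and low values of single-exon genes step with transcript length. The build is GRCm38 (mm10), per the submitters' processing notes. The lowest value of 0.003 stands for no signal. The aligner and the counter were not given in the sources used here. Of 26595 features, 454 share a name with another and were kept apart, and no 2 libraries were identical.

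Values were analysed as log2(RPKM + 1), without further scaling, with limma 3.58.1 in R 4.3.3 (intensity trend in the variance prior, 2 residual degrees of freedom). Genes at 5 RPKM or more in both libraries of at least 1 group were tested, two-sided, with Benjamini-Hochberg adjustment over all 9594 and a threshold of 0.05. Named genes were Cd93, the 15 each way with the largest gap among genes with a mean of at least 10 RPKM in the higher group (unnamed models, pseudogenes and gene segments left out), tested family members, up to 6 members each way per list, and the 3 largest gaps within 5 Mb of Cd93; host and overlapping genes, Cst3 and Nxt1 were chosen after their values were seen. Single-gene results of a few genes are not reported here. The members and the 35 gene lists were chosen with earlier results of these data known. List symbols matched directly (1062), by synonym (24) or by mitochondrial name (13), and 5 did not match. Positions and transcript structure are from GENCODE release M21, which placed 89.5% of tested genes, and promoters from RefSeq. The model was checked on simulated data. Same-numbered libraries deviated in opposite directions across genes (correlation -0.415), and the main fit did not pair them. With 2 libraries a group this cannot show whether same-numbered libraries shared a batch. Alternatives were quantile and median ratio scaling, other pseudocounts (0.1 and 5) and filters, no trend, the replicate block, all 10 libraries of the experiment in 1 model, and leaving out each library.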

Additional observations from a re-analysis of the deposited data

How the results depend on the processing

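With 2 libraries a group, the count of genes that pass depends on the fit. The count of 0 higher and 0 lower held with a pseudocount of 0.1, with no filter on low values and with a variance prior without a trend. It was 4 and 2 after quantile normalization, 4 and 1 after median ratio scaling, 3 and 2 with a pseudocount of 5, 1 and 0 with a mean of at least 10 RPKM, 10 and 7 with the replicate block, and 44 and 60 with 10 libraries in the model. Leaving out 1 library gave 5 to 56 higher and 4 to 175 lower. The other choices added after the data were seen gave 28 and 12 for median ratio scaling with the replicate block, and 266 and 326 when the replicate block was crossed. Genes at least 1 apart numbered 64 higher and 23 lower with a pseudocount of 5, 188 and 197 with no filter, 76 and 34 with a mean of at least 10, and 198 to 406 higher and 138 to 832 lower when 1 library was left out. The cause was not tested, apart from the larger number of genes tested without a filter (16808) and the smaller with a mean of at least 10 (8216). Quantile normalization moved the median of all genes from -0.11 to -0.01 and median ratio scaling to -0.02. Of Cd93 and the 30 genes named by gap, none reversed direction under any alternative run. Both KO libraries of these genes lay on the same side of both WT libraries, so only the scaling alternatives could have turned them. Directions of the other genes named were not tallied, and those with overlapping groups, such as Cst3 and Nxt1, can turn when a library is left out. List medians moved by more than the spread in 48 of the list and setting pairs and by less in 512. Without both libraries 2, the medians of ribosomal protein, mitochondrially encoded and oxidative phosphorylation genes turned negative, at -0.18, -0.26 and -0.18. Those of the Notch, cytokine receptor, Cd93 family, JAK-STAT, lymphoid priming, stroma, glycolysis, DNA methylation, MHC class I and NF-kB lists turned positive, at 0.57, 0.37, 0.24, 0.23, 0.20, 0.17, 0.10, 0.10, 0.09 and 0.07. Without KO library 1 the monocyte and macrophage median turned to -0.30, that of DNA replication to -0.16, that of B and plasma cells to 0.07 and that of Myc targets to 0.02. Tests that need counts (edgeR, DESeq2) were not run, since no counts were used here.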

Other observations

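Several pathways had shares of non-overlapping genes near the background of 14.2% higher and 22.2% lower, and library 1 values are given for each. Notch pathway genes had 3 of 16 tested members higher in both KO libraries (18.8%) and 1 lower (6.25%), a median of -0.19, and 0.57 between libraries 1, with Lfng, a glycosyltransferase of Notch receptors, at 11.1 and 23.9 RPKM in WT and 30 and 28.7 in KO. Wnt pathway genes had 3 of 13 higher and 2 lower, a median of 0.03, and 0.38 between libraries 1, with the kinase Gsk3b at 13.4 and 13.1 in WT and 20.3 and 25 in KO. Genes of DNA methylation and Polycomb had 3 of 22 each way (median -0.05, and 0.10 between libraries 1), and those of MHC class I presentation 3 of 21 higher and 5 lower (-0.12 and 0.09). Of 39 Myc targets and ribosome biogenesis genes, 6 lay in each direction (-0.09 and -0.07), and Srm, spermidine synthase, was at 130.3 and 162 in WT and 304 and 317 in KO.

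Myeloid and lymphoid priming genes differed little as groups, with 3 of 22 and 4 of 22 higher and 5 and 2 lower. Their medians were -0.27 and -0.03, and -0.17 and 0.20 between libraries 1. Within them Id2, an inhibitor of E proteins, was at 79 and 93 RPKM in WT and 161 and 140.3 in KO, and Elane, neutrophil elastase, at 1043 and 1001 in WT and 594 and 801 in KO. Cytokine receptors had 1 of 27 higher, Il6ra, at 5.6 and 8.39 in WT and 16 and 12 in KO, and 4 lower, with a median of -0.14, and 0.37 between libraries 1. Glycolysis genes had 3 of 20 each way (median -0.07, and 0.10 between libraries 1), MHC class II genes 2 of 10 higher and 0 lower (0.03 and 0.28), dendritic cell markers 3 of 13 higher and 1 lower (0.10 and 0.19), and NF-kB and TNF family genes 4 of 26 higher and 7 lower (-0.42 and 0.07). Tnf was at 3.65 and 1.72 in WT and 7.35 and 9.12 in KO, and Traf1, an adaptor of TNF receptors, at 7.28 and 13.2 in WT and 4.12 and 2.1 in KO.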
